A study of Oryza sativa Japonica Group with 6 samples.

Results

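Alcohol dehydrogenase (ADH) transcripts were measured by 4 cDNA probes among the 21495 non-control probes of a rice array. They were selected as the probes whose deposited gene name was one of 4 cDNA accessions. AK069330 and AK073964 are both described in the files as rice *ADH1*, AK102799 as rice *ADH2*, and AK101288 by its best match to the maize Adh2-N allele. Whether the 2 *ADH1* cDNAs come from 1 gene is not stated, so they are reported separately. Probe sequences and genome positions were not used here.

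ADH catalyses the last step of ethanol fermentation. Pyruvate decarboxylase (PDC) turns pyruvate into acetaldehyde, and ADH reduces acetaldehyde to ethanol while it oxidises NADH to NAD+. The NAD+ keeps glycolysis running without oxygen, and the rice coleoptile, the sheath around the first leaf, is known for elongating under water on this pathway. In rice *ADH1* and *ADH2* are the genes best known for this activity.

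The groups were wild-type rice and the *rad* mutant, named for reduced ADH activity, both of the cultivar Kinmaze and both germinated under submergence. Coleoptiles were cut by laser microdissection from frozen sections of 8 µm, and their RNA was amplified linearly and labelled with Cy3 or Cy5. Mutant and wild type shared each of 6 arrays, as 3 replicates that were each hybridised in both dye orientations. The labels give neither the *rad* lesion nor the seedlings' age, so ADH transcript levels do not check the genotype labels. Nor do they say that each replicate was a culture of its own. The p-values therefore rest on a spread among samples that could be technical. RNA from fewer cells and less RNA per cell cannot be told apart in such bulk samples.

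All 4 cDNAs gave clear signals in both genotypes. Each probe was well above background in every channel, 48 of 48 channel readings, with 0 saturated readings and 0 outlier flags. The mean spot intensity of AK069330 lay between 546 and 659 in Cy3 and between 1168 and 1654 in Cy5, at least 10.6 times the local background. AK102799 read 561 to 837 in Cy3 and 1669 to 2284 in Cy5, and AK073964 read 312 to 482 and 732 to 995. AK101288 was the dimmest, at 131 to 219 in Cy3 and 280 to 481 in Cy5, and came down to 2.86 times its background in 1 channel. Cy5 readings were therefore higher than Cy3 readings for each probe before normalization.

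By brightness among all non-control probes, AK102799 ranked highest, with 77.9% to 86.4% of probes at or below it across the 12 channel readings of the 6 arrays (median 82.4%). AK069330 followed at 72.2% to 81.3% (median 77.4%) and AK073964 at 60.3% to 72.6% (median 66.0%). AK101288 stood at 28.2% to 47.6% (median 44.2%). The ranges of AK102799 and AK069330 overlapped, as did those of AK069330 and AK073964 by a narrow margin, whereas AK101288 was below the others in every channel. Probes differ in how brightly they bind, so these ranks order spots and not transcript abundance.

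*ADH1* read by AK069330 was slightly higher in the mutant. Its normalized log2 level was 9.94, 9.93 and 9.76 in mutant replicates 1, 2 and 3, against 9.80, 9.67 and 9.52 in the wild type. The mutant was higher within every replicate, while the genotypes' ranges overlapped because wild-type replicate 1 lay above mutant replicate 3. The log2 ratio of mutant over wild type was 0.06, 0.15 and 0.17 in the mutant-in-Cy5 orientation and 0.22, 0.37 and 0.31 in the mutant-in-Cy3 orientation. All 6 arrays were thus above 0, as they were for 20.1% of all probes tested, and 29.9% of probes were above 0 in all 3 replicates.

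Averaged over each dye pair, the AK069330 ratios were 0.14, 0.26 and 0.24, a mean of 0.21 ± 0.07 (SD, n = 3 replicates) or 1.16-fold (95% interval 1.07 to 1.26). This passed the test (limma, adjusted p = 0.0310, Benjamini-Hochberg over 19947 probes). At that threshold of 0.05, 14.6% of all probes were called higher in the mutant and 10.1% lower, so 1 of 4 ADH cDNAs called is close to the 24.7% called overall. Of all probes, 27.3% had a ratio farther from 0 than AK069330. Processed signals of the scanner and the authors' deposited value table each gave a limma adjusted p of 0.0504, and normexp without an offset gave 0.050002, so none of these made the call. The same held without replicate 1, 2 or 3 (limma adjusted p = 0.0659, 0.182 and 0.0864), although the ratio itself stayed at 0.19 to 0.25. From the mutant-in-Cy5 arrays alone the ratio was 0.13 and was not called (limma adjusted p = 0.122).

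The other *ADH1* cDNA, AK073964, had a mean ratio of the same sign but a wider spread. Its level was 9.42, 9.12 and 9.29 in the mutant and 9.05, 9.07 and 8.98 in the wild type. The genotypes did not overlap, with the mutant on top, a pattern shown by 16.6% of all probes tested. The array ratios were 0.32, -0.04 and 0.24 with the mutant in Cy5, and 0.42, 0.14 and 0.38 with it in Cy3. Replicate 2 was low in both orientations, and its mutant-in-Cy5 array was the 1 of 6 below 0.

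The replicate ratios of AK073964 were 0.37, 0.05 and 0.31, with a mean of 0.24 ± 0.17 (SD, n = 3), 1.18-fold (95% interval 1.03 to 1.36). The change did not pass the test (limma adjusted p = 0.0905). With the 6 arrays entered singly and the replicate as a random block it was called (limma adjusted p = 0.0210), in a fit that called 19.4% of all probes higher. The block fit used 1 correlation within replicates for all probes, 0.206. The arrays of a dye pair thus counted more nearly as separate samples than in the main fit. Without replicate 2 the ratio was 0.34 and was not called (limma adjusted p = 0.0695).

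*ADH2* read by AK102799 had the largest mean ratio of the 4 cDNAs and also the largest spread. Its level was 10.15, 10.33 and 10.41 in the mutant against 10.06, 9.96 and 9.88 in the wild type. These groups did not overlap either, but in replicate 1 the genotypes were close together. The array ratios were 0.28, 0.53 and 0.70 with the mutant in Cy5 and -0.11, 0.22 and 0.36 with it in Cy3. Replicate 1 was lowest in both orientations and replicate 3 highest in both.

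The replicate ratios of AK102799 were 0.08, 0.37 and 0.53, with a mean of 0.33 ± 0.23 (SD, n = 3), 1.26-fold (95% interval 1.05 to 1.5). The test was not passed (limma adjusted p = 0.0785), and 91.1% of all probes had a replicate SD at or below that of AK102799. The block fit of the 6 arrays called it (limma adjusted p = 0.0395). Without replicate 1 the mean was 0.45 and without replicate 3 it was 0.23, neither of them called (limma adjusted p = 0.0582 and 0.162).

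The maize Adh2-N-like cDNA AK101288 showed no detectable difference. Its level was 7.85, 7.60 and 8.12 in the mutant and 7.91, 7.75 and 8.08 in the wild type, and the groups overlapped throughout. The array ratios were -0.09, -0.05 and 0.06 with the mutant in Cy5, and -0.02, -0.26 and 0.01 with it in Cy3, so 2 of 6 arrays were above 0. The mean over replicates was -0.06 ± 0.09 (SD, n = 3), or 0.961-fold, and was not called (limma adjusted p = 0.454). The 95% interval of 0.875-fold to 1.05-fold gives the sizes these arrays leave possible under the model.

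**Figure D1:**
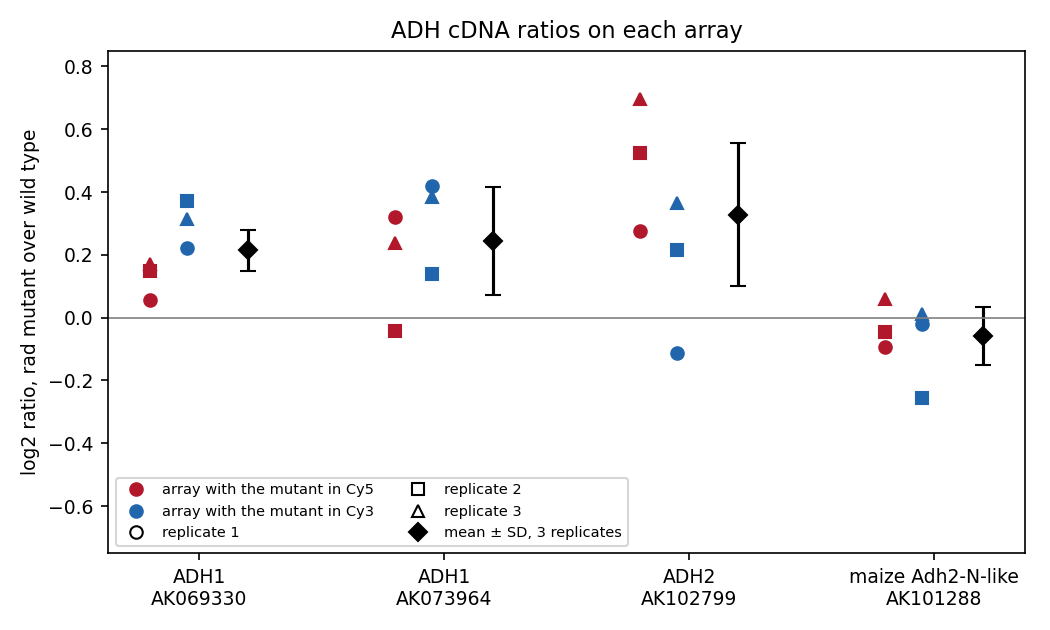
Log2 ratio of *rad* mutant over wild type (vertical axis) for each ADH cDNA on each of the 6 arrays. Red marks arrays with the mutant in Cy5 and blue those with it in Cy3, shapes mark replicates, and black diamonds with bars give the mean ± SD of 3 replicates. AK069330 is above 0 on all 6 arrays, AK073964 and AK102799 on 5, and AK101288 on 2.

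**Figure D2:**
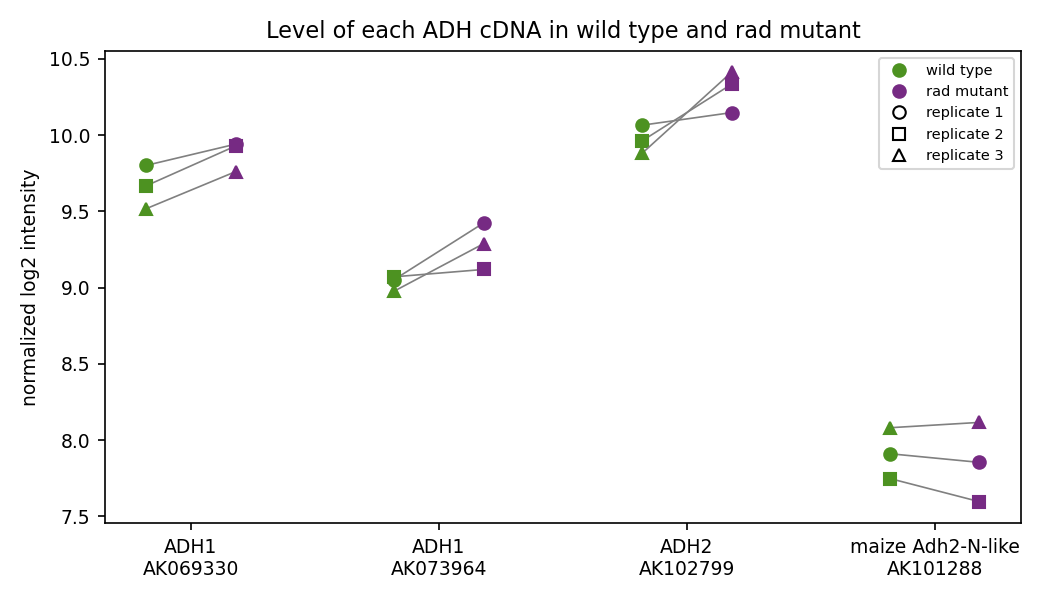
Normalized log2 intensity (vertical axis) of each ADH cDNA in wild type (green) and *rad* mutant (purple), each point the mean of both dye orientations of a replicate and each line joining the genotypes of that replicate. Mutant and wild-type points do not overlap for AK073964 and AK102799 and overlap for AK069330 and AK101288. Heights of different probes are not comparable as transcript amounts.

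Against the whole array, 3 of the 4 ADH ratios were larger than that of a typical probe. The median ratio of all probes tested was -0.01 and the median size of a ratio, sign aside, was 0.0949. A ratio farther from 0 than that of AK102799 was seen in 17.3% of probes, and farther than that of AK073964 in 24.3%. For AK101288 that share was 65.3%, so its ratio was smaller than most. Of the 4 ADH cDNAs 0 were called lower by limma, beside 10.1% of all probes, and 0 were lower at an unadjusted p under 0.05. The unadjusted limma p was 0.00593 for AK069330, 0.0294 for AK073964 and 0.0241 for AK102799, all higher in the mutant. It was 0.306 for AK101288. Ranked by p among the 19947 probes tested, these cDNAs stood at 3818, 6484, 6126 and 13427, so unadjusted p of this size was common on the array.

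**Figure D3:**
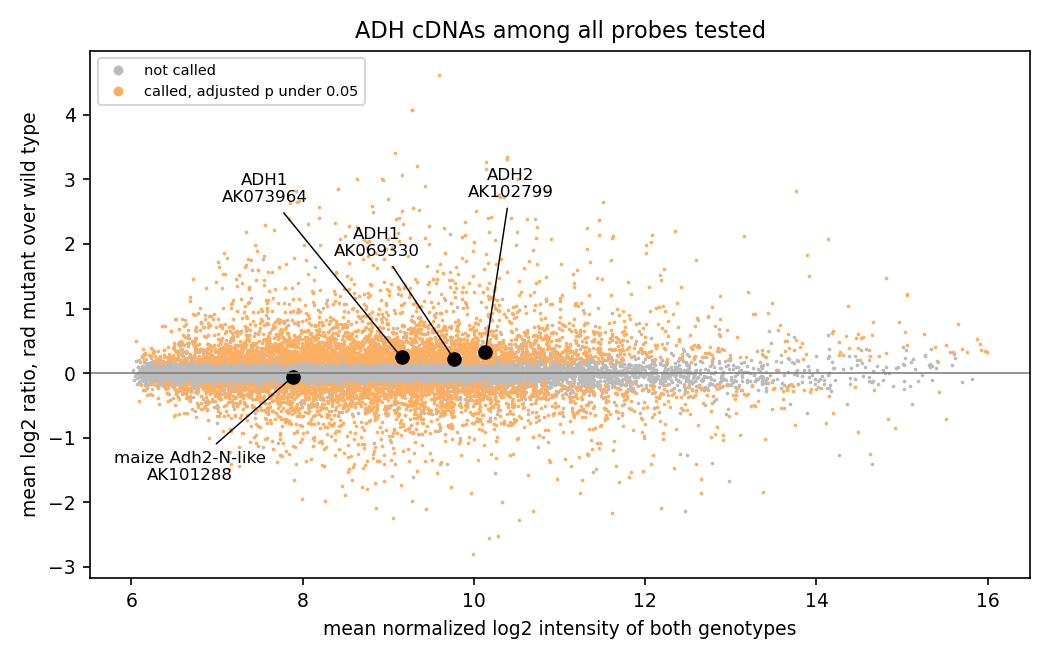
Mean log2 ratio of *rad* mutant over wild type (vertical axis) against mean normalized log2 intensity of both genotypes (horizontal axis) for all 19947 probes tested. Orange points were called at a limma adjusted p under 0.05 and grey points were not, and the 4 ADH cDNAs are marked in black. The ADH cDNAs have ratios from -0.06 to 0.33 and lie within the dense band of probes.

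The ADH cDNAs were next set against each other within each replicate, in 6 pairs. The 2 *ADH1* cDNAs differed by -0.03 ± 0.22 on the log2 scale (AK069330 minus AK073964, SD, n = 3), with differences of -0.23, 0.21 and -0.07, so neither was above the other throughout. The differences of AK069330 and of AK073964 from *ADH2* AK102799 were -0.11 ± 0.17 and -0.08 ± 0.33, again with mixed signs. In contrast, AK101288 had the lowest ratio of the 4 in each replicate. The ratio of AK069330 exceeded it by 0.27 ± 0.12, that of AK073964 by 0.30 ± 0.12 and that of AK102799 by 0.39 ± 0.21.

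An exact two-sided sign-flip permutation test over 3 replicates cannot go below p = 0.25. The 3 differences from AK101288 reached that bound (adjusted p = 0.5 over the 6 pairs), and the other 3 had exact p = 0.5 or 0.75 (adjusted p = 0.75). The replicates in which the ratio was lowest were not the same for all cDNAs. It was lowest in replicate 1 for AK069330 and AK102799 and in replicate 2 for AK073964 and AK101288.

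After loess normalization the dye orientation moved the *ADH2* ratio and an *ADH1* ratio in opposite directions, an opposition that was not seen under median centring. The dye effect was taken as the distance of the mutant-in-Cy5 ratio above the mean of its dye pair. For *ADH2* AK102799 it was 0.19, 0.15 and 0.17 in replicates 1, 2 and 3, with a mean of 0.17 ± 0.02 (SD, n = 3; limma adjusted p = 0.00270), and 2.84% of all probes had a larger one in either direction. For *ADH1* AK069330 it was -0.08, -0.11 and -0.07, with a mean of -0.09 ± 0.02 (SD, n = 3; limma adjusted p = 0.0240). After loess, AK102799 thus read higher when the mutant was in Cy5 and AK069330 higher when it was in Cy3.

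AK073964 had a dye effect of -0.07 ± 0.02 (SD, n = 3; limma adjusted p = 0.0506) and AK101288 of 0.03 ± 0.07 (SD, n = 3; limma adjusted p = 0.470). At the same threshold 27% of all probes were called for a dye effect. With median centring in place of loess the sign turned for AK069330, to 0.15 (limma adjusted p = 0.00127), and for AK073964, to 0.12 (limma adjusted p = 0.00689), while that of AK102799 grew to 0.44. Because each replicate holds both orientations, the dye effect cancels in the mean ratios given above. It does not cancel on arrays of a single orientation, where AK102799 averaged 0.50 ± 0.21 with the mutant in Cy5 and 0.16 ± 0.24 with it in Cy3 (SD, n = 3).

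**Figure D4:**
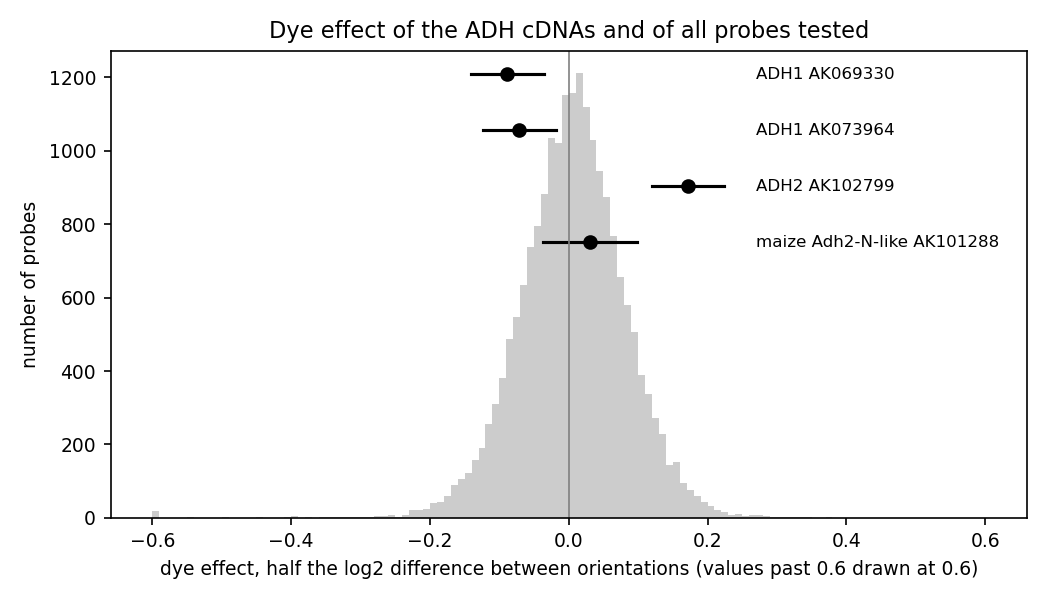
Dye effect of the 4 ADH cDNAs (black points with 95% intervals from limma) over a histogram of all probes tested, with the log2 dye effect on the horizontal axis and the number of probes on the vertical axis. Values beyond the axis limits are drawn at its ends, and the heights of the black points have no meaning. AK102799 lies at 0.17, to the right of most probes, while AK069330 and AK073964 lie at -0.09 and -0.07 under loess and turn positive under median centring.

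For the brighter ADH cDNAs the ratio varied more between replicates than the dye effect did. The SD of the replicate ratios of AK102799 was 0.227, against an SD of 0.0206 for its dye effects, a ratio of 11.0. The corresponding ratio was 7.89 for AK073964 and 3.27 for AK069330. For AK101288 it was 1.30, below the median of 2.08 over all probes tested. The dye effect thus varied less between replicates than the ratio for each of the 4 cDNAs, as for 77.5% of all probes. A constant gap between the orientations does not enter this comparison. For AK069330 the mutant-in-Cy5 and mutant-in-Cy3 arrays read 0.06 and 0.22 in replicate 1, 0.15 and 0.37 in replicate 2, and 0.17 and 0.31 in replicate 3.

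The scanner software's own error model, applied to 1 array at a time, gave errors of 0.165 to 0.200 on the log2 scale for AK069330, AK073964 and AK102799, and of 0.199 to 0.452 for AK101288. In the authors' deposited scanner tables, p was under 0.05 for AK069330 on 1 of 6 arrays, for AK073964 on 3, for AK102799 on 3 and for AK101288 on 0. These values compare the 2 labelled RNAs on an array and carry no spread between replicates. The order of the cDNAs by number of such arrays therefore differs from their order in the replicated test, where AK069330 had the smallest p.

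The sign of each ADH ratio was kept under every alternative run. Over 17 alternatives the ratio of AK069330 stayed between 0.13 and 0.30 and was called higher in 10. That of AK073964 stayed between 0.17 and 0.34 and was called in 3. That of AK102799 ranged from 0.16 to 0.50 and was called in 4. The calls gained for AK102799 came from the mutant-in-Cy5 arrays alone, from the block fits and from eBayes with trend and robust settings, in which 15.9%, 19.4% (18.6% with a dye term) and 15.8% of all probes were called higher. Under the alternatives that changed only background correction, signal column, normalization or filters, that share was 13.6% to 14.7%. AK101288 stayed between -0.10 and -0.01 and was called in 0, with limma adjusted p from 0.252 to 0.935.

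**Figure D5:**
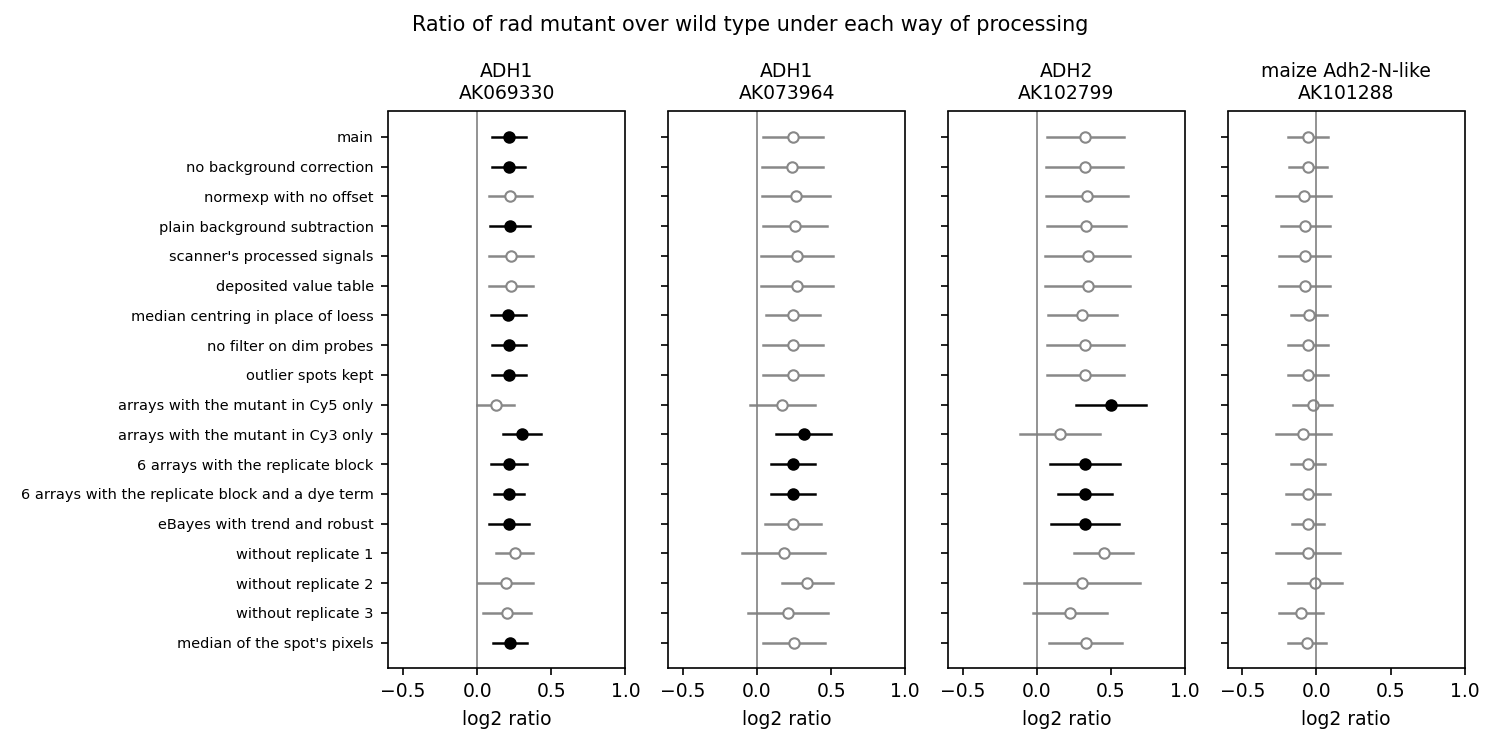
Log2 ratio of *rad* mutant over wild type (horizontal axes) with its 95% interval for each ADH cDNA under the reported processing (top line, main) and 17 alternatives. Filled black points were called at a limma adjusted p under 0.05 and open grey points were not. The ratios of AK069330, AK073964 and AK102799 stay above 0 and that of AK101288 below 0 on every line.

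Of 21 other tested cDNAs with an ADH description, 2 were called higher and 1 lower, beside 14.6% and 10.1% of all probes. The numbers were 1 and 0 without replicate 1 and without replicate 2. Their median ratio was -0.06 against -0.01 for all probes. The smallest p belonged to AK109382, a match to a tobacco allyl alcohol dehydrogenase, an enzyme class that acts on unsaturated alcohols. Its replicate ratios were 1.46, 1.62 and 1.94, a mean of 1.68 ± 0.24 (SD, n = 3) or 3.19-fold (limma adjusted p = 0.00397). Its size depended on the background handling, with a mean of 2.75 under normexp with no offset and 3.24 from the scanner's processed signals, called in both. The other cDNAs with this description, named after their values were seen, had mean ratios below 0 and were not called. AK063674 read -0.59 ± 0.39 (SD, n = 3; limma adjusted p = 0.0655), AK060453 read -0.11 and AK070393 read -0.05. A match to maize Adh1-S, AK105237, chosen after its values were seen, had ratios of 0.07, -0.04 and 0.01 and a mean of 0.01 ± 0.06 (SD, n = 3; limma adjusted p = 0.857).

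Enzymes related to ADH by name were also described. Cinnamyl alcohol dehydrogenases are named for the last step in making lignin precursors. Beside 14.6% of all probes called higher and 10.1% lower, 1 of their 8 cDNAs was called higher and 0 lower (median 0.04). That 1 was AK068824, at 0.75 ± 0.40 (SD, n = 3; limma adjusted p = 0.0383), and without replicates 1 and 2 in turn its adjusted p was 0.144 and 0.162. The glutathione-dependent formaldehyde dehydrogenase AK099733, of the class III ADH family, was called lower at -0.56 ± 0.09 (SD, n = 3; limma adjusted p = 0.00618), but at 0.0513 without replicate 1. Its replicate ratios were -0.59, -0.63 and -0.46.

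PDC supplies the acetaldehyde that ADH reduces. Of 5 PDC cDNAs 4 were tested, 3 were called higher and 0 lower, beside 14.6% and 10.1% of all probes. The number called higher was 0 without replicate 1 and 1 without replicate 2. AK100501 had ratios of 0.87, 1.46 and 2.19 and a mean of 1.51 ± 0.67 (SD, n = 3; limma adjusted p = 0.0239), and AK069905 had a mean of 0.79 ± 0.34 (SD, n = 3; limma adjusted p = 0.0231), which was 1.19 with the scanner's processed signals. Without replicate 1 their adjusted p was 0.0525 and 0.121, and without replicate 2 it was 0.106 and 0.0561. The third, the *PDC1* probe AK100678, was saturated, and its ratio is not given as a size. Its call was lost in the fit with the replicate block (limma adjusted p = 0.184) and without replicate 1 (0.0873). *PDC2* AK101594 read -0.01, 0.05 and 0.74, with a mean of 0.26 ± 0.42 (SD, n = 3; limma adjusted p = 0.328).

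Aldehyde dehydrogenases oxidise acetaldehyde and other aldehydes to acids. Of 17 cDNAs 1 was called higher and 4 lower (median -0.08), beside 14.6% and 10.1% of all probes. The number called lower was 1 without replicate 1 and 3 without replicate 2 or 3, in fits that also called fewer probes over the whole array. AK060824 fell in the mutant, at -0.65 ± 0.07 (SD, n = 3; limma adjusted p = 0.00452), and read -1.02 with normexp with no offset and -1.06 with the scanner's processed signals. The one called higher, AK060757, chosen after its values were seen, read 1.37, 1.59 and 1.02, a mean of 1.33 ± 0.29 (SD, n = 3; limma adjusted p = 0.00646), and 0 of the 17 were called higher without replicate 1. Lactate dehydrogenase is the other route by which pyruvate reoxidises NADH. Of its 3 cDNAs 0 were called by limma, with 1 at an unadjusted p under 0.05, a size of p that was common on the array. The cDNA with the smallest p there, AK103257, read 0.71, 1.84 and 0.66, with a mean of 1.07 ± 0.67 (SD, n = 3; limma adjusted p = 0.0551), and it was called without replicate 2 at 0.68 (limma adjusted p = 0.0336). It was also called with the replicate block (0.00584, and 0.00592 with a dye term), with eBayes trend and robust (0.0316), with median centring (0.0361), with plain background subtraction (0.0449), with normexp with no offset (0.0469) and on mutant-in-Cy5 arrays (0.0263).

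Alanine aminotransferase turns pyruvate into alanine. Beside 10.1% of all probes called lower and 14.6% higher, 1 of its 6 cDNAs was called lower and 0 higher (median -0.10). This was AK059063, at -0.32 ± 0.11 (SD, n = 3; limma adjusted p = 0.0214), which was not called without replicate 1 or 2 (0.0773 and 0.115). Sucrose synthases cleave sucrose for glycolysis. Of 6 tested cDNAs 1 was called higher and 1 lower (median -0.06), beside the same 14.6% and 10.1%. The one called lower, AK100334, read -0.67 ± 0.25 (SD, n = 3; limma adjusted p = 0.0186) and was not called without replicate 1 or 2 (0.107 and 0.0956). Of 2 haemoglobin cDNAs 0 were called by limma and 1 had an unadjusted p under 0.05, a size of p that was common on the array. That cDNA, AK073898, read 0.37 ± 0.21 (SD, n = 3; limma adjusted p = 0.0519), called without replicate 3 at 0.50 (limma adjusted p = 0.0106). It was also called with the replicate block (0.00408, and 0.00806 with a dye term), with eBayes trend and robust (0.0314), with median centring (0.0389), with plain background subtraction (0.0474), with normexp with no offset (0.0496) and on mutant-in-Cy5 arrays (0.0302). The other haemoglobin cDNA, AK064054, named after its values were seen, read 0.65, 0.89 and -0.53. Its mean was 0.34 ± 0.76 (SD, n = 3; limma adjusted p = 0.468). Without replicate 3 both haemoglobin cDNAs were called higher.

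These pathway lists together held 68 tested cDNAs, of which 8 were called higher and 8 lower, 11.8% each, beside 14.6% and 10.1% of all probes. Without replicate 1 the numbers were 2 and 1, without replicate 2 they were 4 and 4, and without replicate 3 they were 11 and 8. The share called higher among all probes fell likewise, from 14.6% to 4.8% without replicate 1 and 3.79% without replicate 2, and was 13.8% without replicate 3.

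Markers of other tissues that a section could hold were read beside these values, since no marker defining the coleoptile was fixed. Of 33 tested leaf photosynthesis cDNAs 2 were called higher and 8 lower, beside 14.6% and 10.1% of all probes. Summed normalized intensities of the marker lists cover all their cDNAs on the array, tested or not. For the 38 leaf cDNAs on the array the sum was 33950 to 35150 in the mutant and 30660 to 33247 in the wild type. The smallest p was that of AK061295, a light-harvesting protein, at -0.37 ± 0.03 (SD, n = 3; limma adjusted p = 0.00686, and 0.0612 without replicate 2). The 2 called higher, named after their values were seen, went the other way. They were AK070556, a ribulose bisphosphate carboxylase small subunit, at 0.49 ± 0.20 (SD, n = 3; limma adjusted p = 0.0225), and AK108672, a chlorophyll a/b-binding protein, at 0.27 ± 0.14 (SD, n = 3; 0.0486). Of 6 tested root-specific RCc cDNAs 2 were called lower and 0 higher, beside 10.1% and 14.6% of all probes. The 9 on the array had a summed intensity of 24794 to 62491 in the mutant and 60202 to 77371 in the wild type. A saturated probe was among them. AK063090 of that list read -0.31 ± 0.06 (SD, n = 3; limma adjusted p = 0.0132), with 0.0651 and 0.0884 without replicates 1 and 2, and was -0.56 with the scanner's processed signals.

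Some root markers differed between replicates, namely 3 cDNAs that were chosen after their values were seen. AK062381, the other one called lower, read -1.50, -1.43 and -0.64, a mean of -1.19 ± 0.47 (SD, n = 3; limma adjusted p = 0.0191). AK102086 read -1.02, -0.94 and 0.10, far below 0 in replicates 1 and 2 and slightly above it in replicate 3. AK063684 read -2.32, -2.03 and 0.11, with the same signs, but the probe was saturated and these values are not sizes. The rest of the list varied less. AK063090 read -0.27, -0.38 and -0.28, AK109149 read -0.04, 0.03 and -0.01, and AK108560 read -0.05, 0.02 and 0.02. Without replicate 3, 4 of the 6 root cDNAs were called lower, and without replicate 1 or 2, 0 were. Calls over the whole array fell too, with 4.8% and 3.79% of probes called higher without replicates 1 and 2 and 13.8% without replicate 3. The share of all probes called lower in these fits is not given.

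Of 13 endosperm and embryo storage cDNAs 0 were called by limma. In that list 3 had an unadjusted limma p under 0.05, 1 higher and 2 lower, beside at least 6484 of all 19947 probes in either direction. The smallest limma adjusted p was 0.0608, for a match to sesame steroleosin, AK107425, at 0.19 ± 0.09 (SD, n = 3). AK107425 was called higher with the scanner's processed signals or the deposited value table (1.05, limma adjusted p = 0.00420 each), with normexp with no offset (0.53, 0.0277), plain subtraction (0.33, 0.0324) and no background correction (0.17, 0.0487). It was called with the replicate block (0.0206) and on mutant-in-Cy5 arrays (0.0380) too. The summed intensity of all 15 storage cDNAs on the array was 3609 to 3798 in the mutant and 4016 to 4130 in the wild type. The list meant for the aleurone held 14 tested cDNAs whose description names alpha-amylase. Of these 9 are described only by a promoter of such a gene, 2 match the Arabidopsis gene At1g69830 and 3 match rice alpha-amylase mRNA. Few members of the list are thus aleurone markers by description. Among the 14 tested, 2 were called lower and 0 higher. All 17 on the array had summed intensities of 2424 to 2508 in the mutant and 2568 to 2678 in the wild type. AK065152, one of the matches to At1g69830, read -0.36 ± 0.16 (SD, n = 3; limma adjusted p = 0.0307), and was not called without replicate 1 or 2 (0.0619 and 0.137). The other one called lower, AK073487, named after its values were seen, is a match to rice alpha-amylase mRNA. It read -0.16 ± 0.03 (SD, n = 3; limma adjusted p = 0.0409), and without replicate 1 or 2 it was not called. The remaining rice matches, AK063988 and AK105269, read -0.05 and 0.01 and were not called. Over the 4 marker lists together, 66 tested cDNAs gave 2 called higher (3.03%) and 12 lower (18.2%), beside 14.6% and 10.1% of all probes. Without replicates 1, 2 and 3 in turn these numbers were 0 and 2, 0 and 1, and 2 and 11. In the same fits 4.8%, 3.79% and 13.8% of all probes were called higher, and the share called lower is not given. The part of these tissues in the ADH ratios was not tested.

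Finally, the cDNAs with a named product whose 6 array ratios lay nearest to each ADH cDNA were listed by root mean square difference on the log2 scale, over 7929 candidates. For *ADH1* AK069330 these were a heat stress transcription factor, Spl7 (AK100412, 0.0484), a match to a human rab3-GAP regulatory domain (AK106551, 0.0527) and a glucan endo-1,3-beta-glucosidase-like cDNA (AK109428, 0.0577). For AK073964 they were an ABC1-like cDNA (AK105594, 0.0609), a beclin1-like cDNA (AK101033, 0.0685) and the U2 snRNP auxiliary factor subunit 35b (AK070198, 0.0788). For *ADH2* AK102799 they were calmodulin (AK071852, 0.0829), a GT-1-like transcription factor (AK105720, 0.0895) and a carboxyl methylase-like cDNA (AK067584, 0.102).

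The nearest to AK101288 were a chitinase (AK102369, 0.0300), a match to a sweet potato relative's secreted glycoprotein (AK107364, 0.0328) and a tyrosine phosphatase-like cDNA (AK064452, 0.0448). Neighbours within 0.1 numbered 488 for AK101288, 70 for AK069330, 11 for AK073964 and 2 for AK102799. Within this fixed distance the array pattern of *ADH2* had few counterparts among the candidates, and that of AK101288, near 0 throughout, had many. How many other probes of like ratio and spread would have was not counted. The 4 ADH cDNAs themselves were left out as candidates.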

How the data were processed

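Feature Extraction 8.5.1.1 read the arrays, of Agilent design 012106 with 22575 spots, per the file headers. Scanner files were deposited that hold mean and median intensity per spot with its local background, processed intensity (surface subtracted, dye-normalized), a log10 ratio of Cy5 over Cy3 with its error and p-value, and flags. The deposited value table holds the same log10 ratios, within 5e-06, turned to mutant over wild type. The cDNA accessions matched 0 entries of the RefSeq gene table used, so no loci are given.

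Ratios were computed from mean and background intensity with limma 3.58.1 (R 4.3.3): normexp with offset 50, then loess with control spots at weight 0. Probes well above background in a genotype on at least 4 of 6 arrays were kept (20213), less 266 with an outlier spot, leaving 19947. All 4 ADH cDNAs passed. Dye pairs were averaged into 3 replicates, and lmFit and eBayes fitted an intercept to the log2 values, called at Benjamini-Hochberg adjusted p under 0.05. The deposited log10 values were turned to log2. Levels per channel were taken after loess and Aquantile normalization. The number of arrays limits the precision. Deviations from the mean of each dye orientation correlated between same-numbered arrays at 0.805, 0.663 and 0.840 across probes, against -0.662 to -0.115 otherwise. Such deviations sum to 0 over the 3 arrays of an orientation, so positive same-numbered values force negative ones elsewhere. Titles name the same-numbered arrays colour swaps.

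Named cDNAs were the 4 members, 3 nearest neighbours of each, the smallest p of each list and all PDC cDNAs. Lists were text patterns on the descriptions, which are best matches, often to another species. The members and lists were chosen with earlier results of these data known. Alternatives covered background correction, signal column, normalization, filters, dye orientation, replicate block, variance prior and each replicate left out. The code was tested on simulated data.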

Additional observations from a re-analysis of the deposited data

How the results depend on the processing

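Under 17 alternatives the ratios of the 4 ADH cDNAs kept their sign in all. The AK069330 call was lost with normexp with no offset (0.22, limma adjusted p = 0.050002), with the scanner's processed signals or the deposited value table (0.23, 0.0504 each), on mutant-in-Cy5 arrays alone (0.13, 0.122) and without any replicate (0.19 to 0.25). A call was gained for AK073964 on mutant-in-Cy3 arrays (0.31, limma adjusted p = 0.0391), and for AK102799 on mutant-in-Cy5 arrays (0.50, 0.0190) and with eBayes trend and robust (0.33, 0.0472). With the replicate block on 6 arrays AK073964 (0.24, limma adjusted p = 0.0210) and AK102799 (0.33, 0.0395) were called, and with a dye term added they were called as well (0.24, 0.0226, and 0.33, 0.0146). The block changed no call of AK069330 or AK101288. The dye effect of AK069330 turned to 0.15 and that of AK073964 to 0.12 under median centring. With processed signals the dye effects of AK069330 (-0.10, limma adjusted p = 0.0768) and AK102799 (0.18, 0.0504) were not called, and with no background correction that of AK073964 was (-0.073, 0.0313). Without any replicate that of AK069330 was -0.097 to -0.077, not called. The difference between AK069330 and AK073964 was 0.07 without replicate 1, and that between AK073964 and AK102799 was 0.03 without replicate 2, both with a changed sign. The saturated *PDC1* probe AK100678 read -0.13 on mutant-in-Cy5 arrays and 1.66 on mutant-in-Cy3 arrays, neither of which is a size. All probes called numbered 4929, and 1184 to 4573 without a replicate (1491 without replicate 1, 1184 without replicate 2). The use of the median of a spot's pixels was chosen after seeing the data and changed no ADH call. Where no cause is given, it was not tested. Outlying samples were not looked for, since groups of 3 are too small, and AK101288, nearest to background, has the widest scanner error.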
